A study of Mus musculus with 12 samples.

Results

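Common myeloid progenitors (CMP) are bone marrow cells that give rise to both granulocyte-monocyte progenitors (GMP) and megakaryocyte-erythrocyte progenitors (MEP). The comparison described here set the mean of the CD27+ CMP and CD27- CMP group means against the mean of the GMP and MEP group means, and it used 12 of the 12 arrays of the series, 6 on each side. The mice were C57BL/6 females aged 4 to 6 weeks, and all 4 populations were bone marrow cells sorted as negative for lineage antigens and Sca-1 and positive for CD117. Both CMP fractions were gated as CD34+ and CD16/32-, and CD27 divided them. GMP carried all of CD34, CD16/32 and CD27 in their gate, and MEP carried none of them. RNA of 80000 cells per population went onto Affymetrix mouse genome arrays, 3 per population. The labels name the arrays of a population biological replicates without saying whether separate animals or pools stood behind them, so p-values measure only the spread between these arrays.

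CMP, GMP and MEP are defined by surface antigens. The classical scheme places CMP above GMP, which form neutrophils, monocytes and related cells, and above MEP, which form red cells and platelets. Transcription factors such as Meis1, Mecom, Gata2 and Fli1 are active in stem cells and early progenitors and are drawn down or redirected as cells commit to one lineage. Each gate can also hold cells already leaning toward one fate.

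Values are log2 signals, each probe set set to 0 at the median of the 12 arrays, so they order the arrays for a gene and give no absolute level. Each gene was read from its most variable probe set. The comparison has a pair of arms that share no array: CD27+ CMP minus GMP, called the CD27+ arm, and CD27- CMP minus MEP, called the CD27- arm. The difference between the CMP mean and the GMP and MEP mean is the average of the arms. On the arrays, Cd34 RNA in CD27- CMP, gated as CD34+, overlapped that in the CD34- MEP. The CD27+ arm is therefore given beside the averages, gene by gene or as counts for a gene list. Its difference leaves those 6 arrays out, but its p-values use the spread of all 12 arrays. A gene is called when its adjusted p from limma is under 0.05 over all 18193 genes.

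The CMP arrays differed from the GMP and MEP arrays in 656 of 18193 genes (3.61%), or 907 of 45037 probe sets (2.01%). Of these, 314 genes (1.73%) were higher and 342 (1.88%) lower in the CMP fractions, and 124 and 113 of them with a size of 1 log2 or more. Called differences had a median size of 0.81 log2. The median standard error (SE) was 0.10 log2 over all 18193 genes, including those that hardly varied, and is not that of the called genes. Without MEP replicate 2 the count was 346, with 160 higher and 186 lower, and without GMP replicate 2 the higher genes numbered 202. Because the arrays measure RNA of sorted mixtures, fewer cells of a kind and less RNA per cell cannot be told apart.

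The arms contributed unequally. The CD27+ arm alone called 948 genes (5.21%), 470 higher (2.58%) and 478 lower (2.63%) in CD27+ CMP. Fitted apart from the CD27- CMP and MEP arrays, it called 477. The CD27- arm called 6 (0.033%), 3 higher (0.0165%) and 3 lower (0.0165%) in CD27- CMP. An unadjusted p under 0.05 was reached by 1101 of 18193 genes in the CD27- arm and by 2452 in the CD27+ arm. Where no gene differs, a share of about 0.05 is expected to reach it. In the 656 genes the median size of the CD27+ arm was 1.33 log2 and that of the CD27- arm 0.21 log2. The arms had one sign in 231 of the 314 higher genes and in 290 of the 342 lower genes, 79.4% in all, against 66.9% of all genes. No gene was called in both arms in the same direction. Of 18193 genes, 103 reached an unadjusted p under 0.05 as higher in both arms and 151 as lower. Of the 314 higher genes 266 had their highest mean in CD27+ CMP, and of the 342 lower genes 243 had theirs in GMP. These counts follow in part from the choice of the genes and include genes with even arms, such as Mycn. Among probe sets whose 12 arrays spanned 1 log2 or more, the standard deviation (SD) of the difference between a CD27+ CMP and a GMP array was typically 0.834 log2, and between a CD27- CMP and a MEP array 0.592 log2. The second value lay inside the range for arrays of 1 population, 0.498 log2 in MEP to 0.685 log2 in CD27- CMP.

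**Figure D1:**
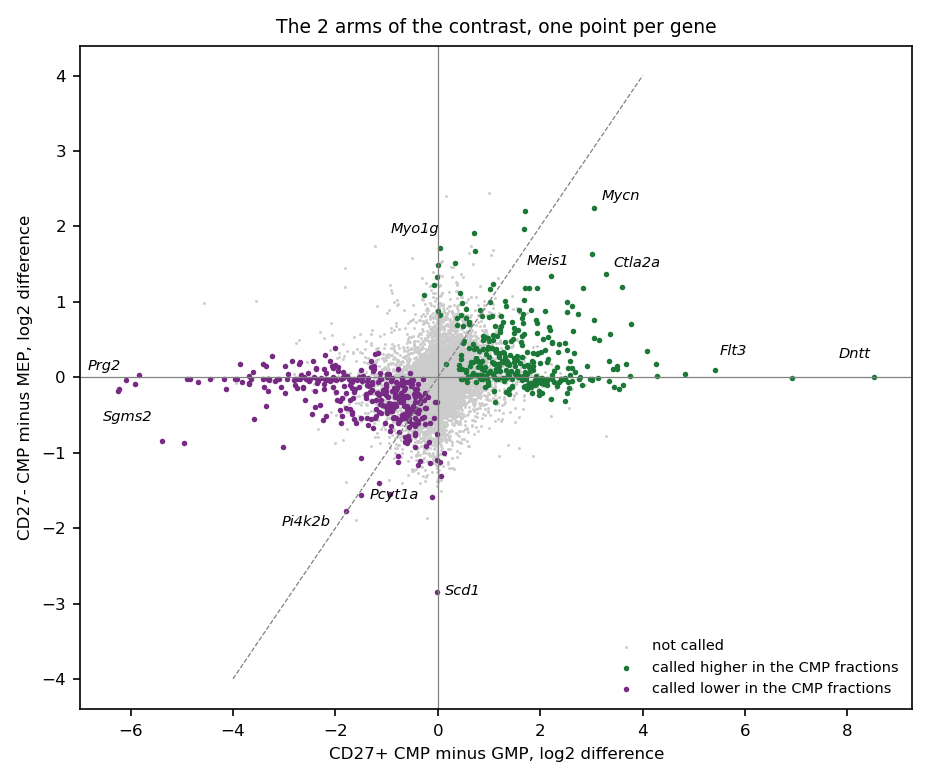
Each point is 1 of 18193 genes, with the log2 difference of CD27+ CMP from GMP on the x axis and of CD27- CMP from MEP on the y axis; coloured points are the 656 genes called in the average of the arms and the dashed line marks equal arms. Most coloured points spread along the x axis, and Mycn, Meis1, Ctla2a, Pcyt1a and Pi4k2b are among those away from both axes.

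The genes of the sort and of early progenitors were read first. Cd34, which encodes the CD34 glycoprotein, read 4.10, 4.00 and 4.20 in CD27+ CMP and -2.85, -2.88 and -3.93 in CD27- CMP. It read 3.09, 2.85 and 3.13 in GMP and -3.17, -4.97 and -6.59 in MEP. The CD27- CMP arrays, whose gate is CD34+, thus overlapped the MEP arrays, whose gate is CD34-, and lay far below GMP. The average difference of 1.38 log2 (SE 0.50) did not pass (adjusted p = 0.228), nor did the arms of 1.07 and 1.69 log2. It passed with array weights (1.42 log2, adjusted p = 0.0464) and without MEP replicate 1 (1.82 log2, adjusted p = 0.0272). The sort read surface protein and the arrays RNA.

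Mycn, a transcription factor of the Myc family, was higher in the mean of the CMP fractions than in that of GMP and MEP. It read 0.48, 1.61 and 2.10 in CD27+ CMP and 0.77, 1.45 and 1.08 in CD27- CMP. The GMP arrays stood at -1.82, -1.62 and -1.52 and the MEP arrays at -1.22, -1.75 and -0.48. All 6 CMP arrays lay above all 6 others. The difference was 2.65 log2 (SE 0.30, adjusted p = 0.00215), with arms of 3.05 log2 (adjusted p = 0.00317) and 2.25 log2 (adjusted p = 0.202) that did not differ detectably (0.80 log2, SE 0.61, adjusted p = 0.991). The other 2 probe sets of Mycn spanned only 0.250 and 0.472 log2 over the 12 arrays.

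Meis1, a homeobox factor of stem cells, was higher in the CMP fractions as well. It read 1.87, 2.23 and 2.12 in CD27+ CMP against 0.01, -0.01 and 0.41 in GMP. In CD27- CMP it read 0.06, -0.50 and -0.67 against -1.62, -1.67 and -1.38 in MEP. Each CMP fraction lay above its partner, but CD27- CMP overlapped GMP. The difference was 1.56 log2 (SE 0.14, adjusted p = 0.000561), with arms of 1.94 log2 (adjusted p = 0.000566) and 1.18 log2 (adjusted p = 0.117). A second probe set of Meis1 gave an average of 1.27 log2 (adjusted p = 0.0686 over all probe sets), and the third spanned only 0.163 log2.

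Fli1, an ETS factor of stem cells and megakaryocytes, passed the test on the CD27- side and not on the CD27+ side. CD27- CMP read -1.23, -1.61 and -1.29 and MEP -2.63, -2.48 and -2.31, a called CD27- arm of 1.10 log2 (adjusted p = 0.0217). That call was lost in 9 of 20 alternative settings, among them the replicate block and quantile normalization, with a highest adjusted p of 0.325. The other probe set of Fli1 gave a CD27- arm of 0.72 log2 (adjusted p = 0.788 over all probe sets). CD27+ CMP read 1.42, 1.23 and 1.29 and GMP 1.61, 1.72 and 1.45, a CD27+ arm of -0.28 log2 that did not pass (adjusted p = 0.351). The arms differed (-1.37 log2, adjusted p = 0.00433). The average of 0.41 log2 (adjusted p = 0.0324) lost its call in 13 of 20 alternative settings, with a highest adjusted p of 0.382.

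Among the remaining sort genes, Cd27 itself was 0.86 log2 higher in the CMP fractions (SE 0.17, adjusted p = 0.027), with a CD27+ arm of 1.42 log2 and a CD27- arm of 0.30 log2, and lost its call in 11 of 20 settings. Fcgr3, the gene of CD16, read 3.65, 1.92 and 1.04 in CD27+ CMP against 7.35, 6.80 and 7.31 in GMP, which carry CD16/32 in their gate. CD27- CMP, at -2.63, -2.50 and -2.39, and MEP, at -1.04, -1.36 and -2.51, overlapped through MEP replicate 3. Its average was -2.91 log2 (SE 0.43, adjusted p = 0.00724). Fcgr2b, the gene of CD32, did not pass with its most variable probe set (-0.46 log2, adjusted p = 0.534). Another of its 5 probe sets passed over all probe sets (-0.78 log2, adjusted p = 0.00472), with a CD27+ arm of -1.74 log2 (adjusted p = 0.00018). Kit, the gene of CD117, did not pass (-0.51 log2, adjusted p = 0.289). Ly6a (Sca-1) could not be read from a probe set of its own.

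**Figure D2:**
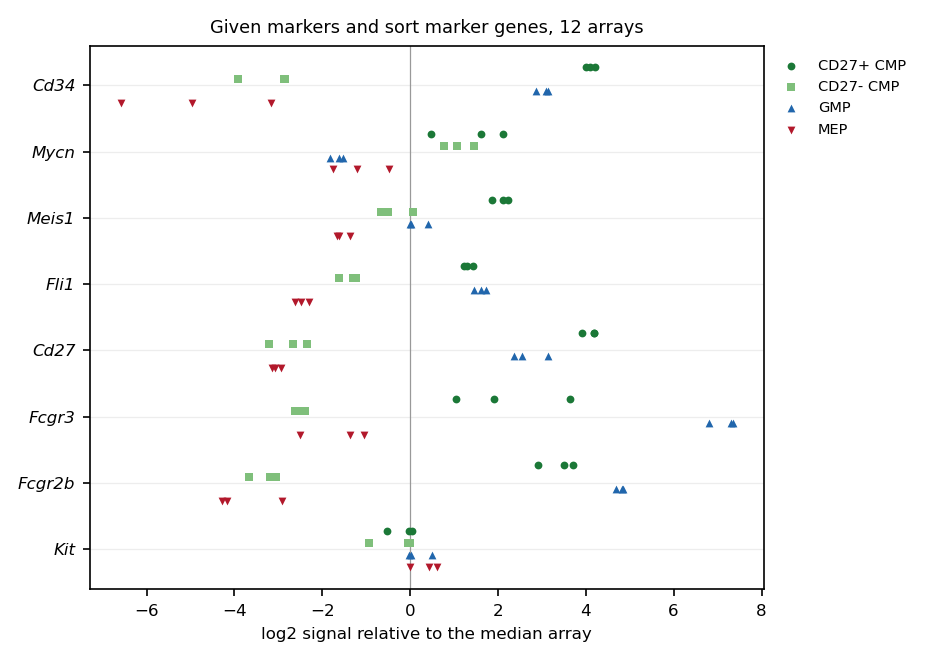
Log2 signal relative to the median array (x axis) of 8 genes in the 12 arrays, 1 point per array and 1 colour and shape per population. For Mycn both CMP fractions lie to the right of GMP and MEP, whereas for Cd34 the CD27- CMP points at -2.85 to -3.93 fall among or near the MEP points.

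For 4 genes in which each arm moved the same way by at least 1 log2, the promoter windows of RefSeq (GRCm38.p6, 250 bases before to 50 after the first listed start) are shown to give the sequence next to the measurement. Capitals mark matches, on either strand, to 6 motifs: AGATAA of GATA factors, GGAAGT of ETS factors, its longer form CCGGAAGT (which contains GGAAGT), the E-box CACGTG of Myc-type factors, TGACAG of Meis-type factors and TGTGGT of Runx factors. The windows are chr12:12941787-12942086 (Mycn, minus strand), chr11:19018920-19019219 (Meis1, minus strand), chr13:60936576-60936875 (Ctla2a, minus strand, the first of 2 windows) and chr16:32430671-32430970 (Pcyt1a, plus strand, the first of 3).
Mycn: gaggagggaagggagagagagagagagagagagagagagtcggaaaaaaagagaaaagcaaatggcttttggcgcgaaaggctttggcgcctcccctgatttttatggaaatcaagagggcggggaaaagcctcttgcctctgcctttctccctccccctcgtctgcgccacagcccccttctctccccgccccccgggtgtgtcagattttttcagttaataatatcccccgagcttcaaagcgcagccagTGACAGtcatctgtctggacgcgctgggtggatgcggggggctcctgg
Meis1: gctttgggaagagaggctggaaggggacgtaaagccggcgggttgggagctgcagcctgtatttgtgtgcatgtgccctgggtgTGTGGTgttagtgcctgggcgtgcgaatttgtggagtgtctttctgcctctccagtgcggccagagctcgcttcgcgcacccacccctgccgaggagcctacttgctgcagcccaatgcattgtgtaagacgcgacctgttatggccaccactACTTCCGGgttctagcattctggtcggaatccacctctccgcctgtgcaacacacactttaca
Ctla2a: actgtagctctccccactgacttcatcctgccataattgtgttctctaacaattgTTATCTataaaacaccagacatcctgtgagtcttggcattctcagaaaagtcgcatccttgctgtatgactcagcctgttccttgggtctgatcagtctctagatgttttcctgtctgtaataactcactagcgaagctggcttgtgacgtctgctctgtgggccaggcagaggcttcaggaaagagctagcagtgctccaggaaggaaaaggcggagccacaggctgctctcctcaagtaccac
Pcyt1a: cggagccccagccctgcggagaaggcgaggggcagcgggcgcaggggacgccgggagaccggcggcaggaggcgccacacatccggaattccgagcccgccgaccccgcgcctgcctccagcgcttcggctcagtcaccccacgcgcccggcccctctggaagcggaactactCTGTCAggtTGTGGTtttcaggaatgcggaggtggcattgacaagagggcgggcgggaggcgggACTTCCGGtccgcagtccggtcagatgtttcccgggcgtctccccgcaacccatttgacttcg
The Mycn window held 1 TGACAG and no match to the other motifs. The Meis1 window held TGTGGT and, on the other strand, CCGGAAGT; the Pcyt1a window held both of these and TGACAG on the other strand; the Ctla2a window held AGATAA on the other strand. A window was matched for 246 of the 314 higher genes, 270 of the 342 lower genes and 14452 of all genes tested. CCGGAAGT stood in 2 windows of higher genes (0.813%), Meis1 included, in 20 of lower genes (7.41%), in 6.14% of the windows of all genes tested and in 4.0% of all 27025 windows of this length. The shorter GGAAGT stood in 20.3% of the higher, 28.9% of the lower and 26.0% of all tested windows. For AGATAA the shares were 8.54%, 7.04% and 8.13%, for CACGTG 7.72%, 10.0% and 9.02%, and over all 27025 windows these 3 motifs stood in 24.1%, 11.4% and 7.24%. TGACAG and TGTGGT each stood in 37 of the 246 higher windows. TGACAG stood in 18.5% of the lower, 17.6% of all tested and 19.3% of all windows, and TGTGGT in 14.1%, 13.7% and 16.9%. These shares are a description of letters in the windows, with no test.

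In 12 called genes (0.066% of the genes tested) all 6 CMP arrays lay above all 6 GMP and MEP arrays, and in 36 (0.198%) all lay below. Without MEP replicate 3, GMP replicate 3 or CD27- CMP replicate 3 the higher count was 25, 19 and 29. The lower count was 19 without MEP replicate 2, 21 without GMP replicate 2 and 55 without MEP replicate 3, and it was 19 after quantile normalization and 20 after centring the arrays. Mycn had the largest difference of the higher group, and the arms differed in 5 of its 12 genes.

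Ctla2a, which encodes an inhibitor of cathepsin-like proteases, read 2.58, 2.39 and 2.63 in CD27+ CMP and 0.81, 0.35 and 0.52 in CD27- CMP. It read -1.01, -0.49 and -0.74 in GMP and -0.35, -1.09 and -0.99 in MEP. Both fractions stood above both others, CD27+ CMP by more. The difference was 2.32 log2 (SE 0.15, adjusted p = 6.92e-05), with arms of 3.28 log2 (adjusted p = 3.48e-05) and 1.37 log2 (adjusted p = 0.0833), and the arms differed (1.92 log2, adjusted p = 0.0123).

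Gimap6 and Gimap1 encode GTPases of the immune-associated family found in lymphocytes and stem cells. Gimap6 read 1.40, 1.67 and 2.04 in CD27+ CMP, 0.02, 0.36 and 0.29 in CD27- CMP, -2.54, -2.24 and -2.37 in GMP and -0.02, -0.15 and -0.20 in MEP. Its average was 2.22 log2 (adjusted p = 1.33e-05), almost all of it from the CD27+ arm of 4.09 log2, since the CD27- arm was 0.35 log2 (adjusted p = 0.849). Gimap1 averaged 1.97 log2 (adjusted p = 0.0015), with arms of 3.36 and 0.58 log2. In both genes the CD27- CMP and MEP arrays were separated by small steps only.

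Bach2, a repressor active in B cells, read 3.53, 3.33 and 3.55 in CD27+ CMP, while the other 9 arrays ranged from -0.09 to 0.15. Its average of 1.81 log2 (SE 0.04, adjusted p = 8.75e-08) was that of 1 fraction: the CD27+ arm was 3.51 log2 and the CD27- arm 0.11 log2 (adjusted p = 0.872). Angpt1, the ligand of the Tie2 receptor, read 2.82, 2.18 and 2.53 in CD27+ CMP, 0.04, 0.07 and 0.23 in CD27- CMP, -0.04, -0.37 and -0.26 in GMP and -0.36, -0.57 and -1.24 in MEP. Its average was 1.78 log2 (SE 0.16, adjusted p = 0.000576), with arms of 2.73 and 0.84 log2 that differed (1.90 log2, adjusted p = 0.0195).

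The other higher genes without overlap had differences from 0.38 to 1.03 log2. They were Mex3a (average 1.03, CD27+ arm 1.48), Ptprcap, whose product binds the phosphatase CD45 (0.99 and 1.48), the desmosome gene Pkp3 (0.90 and 1.00), Phldb1 (0.75 and 0.98), the SMC5/6 complex gene Nsmce1 (0.58 and 0.81) and the respiratory chain assembly gene Cox7a2l (0.38 and 0.45). The CD27+ arm passed for these genes except Pkp3. In none of the 6 did the arms differ detectably (adjusted p from 0.21 to 0.991). Ptprcap and Nsmce1 kept their call in all 20 alternatives, whereas Mex3a lost it in 9, Pkp3 in 11, Cox7a2l in 5 of 19 and Phldb1 in 1.

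Among the 36 lower genes without overlap the arms differed by the test in 3. Pcyt1a, the rate-limiting enzyme of phosphatidylcholine synthesis, read -1.42, -1.40 and -0.28 in CD27+ CMP and -1.41, -1.11 and -1.08 in CD27- CMP. It read 0.37, 0.28 and 0.72 in GMP and 0.37, 0.42 and 0.32 in MEP. The arms were -1.49 log2 (adjusted p = 0.0136) and -1.57 log2 (adjusted p = 0.151), and the average was -1.53 log2 (SE 0.19, adjusted p = 0.00379). For the 3 remaining probe sets of the gene the averages were -0.55, -0.91 and -0.55 log2.

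Abcb10, a mitochondrial transporter needed for haem formation, read -1.63, -0.71 and -1.48 in CD27+ CMP, -0.35, -0.27 and -0.19 in CD27- CMP, 0.27, 0.23 and 0.19 in GMP and 0.92, 0.91 and 0.55 in MEP. Its average was -1.29 log2 (SE 0.15, adjusted p = 0.00222), with arms of -1.51 and -1.06 log2. Ift80, an intraflagellar transport gene, averaged -1.27 log2 (SE 0.18, adjusted p = 0.00693), with arms of -1.15 and -1.40 log2. Pcyt1a, Abcb10 and Ift80 were called in all 20 alternatives. Pi4k2b, a phosphatidylinositol 4-kinase, had the largest difference of the 36 at -1.78 log2 (SE 0.36, adjusted p = 0.0295) and arms of -1.79 and -1.78 log2, but wide replicates. Its arrays ran from -1.42 to -0.11 in the CMP fractions and from 0.11 to 1.87 in GMP and MEP, and the call was lost in 10 alternatives. The nucleoporin gene Ndc1 (-1.24 log2, adjusted p = 0.0324) likewise lost it in 10, and its CD27+ arm of -0.94 log2 did not pass (adjusted p = 0.257).

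A further 10 lower genes were named by rank. With the average first and the CD27+ arm second, they were the lipolysis cofactor gene Abhd5 (-1.06 and -1.67 log2), the nucleotide-sugar transporter gene Slc35a3 (-0.98 and -1.27), Armt1 (-0.91 and -0.78), the ubiquitin ligase gene Arel1 (-0.88 and -1.23) and the Fanconi anaemia gene Fancd2 (-0.82 and -0.93). The others were the metal-responsive factor gene Mtf1 (-0.81 and -1.29), Armc8 (-0.76 and -1.22), Smpdl3a (-0.73 and -1.35), Skp2, whose product directs the degradation of the kinase inhibitor p27 (-0.73 and -0.35), and Cgrrf1 (-0.72 and -0.65). The CD27+ arm did not pass for Armt1, Skp2 and Cgrrf1. Arel1 and Smpdl3a kept their call in all 20 alternatives, and Skp2, which lost it in 13, was the least stable. The arms differed by the test for Smpdl3a (-1.22 log2, adjusted p = 0.0195) and for none of the other 9. No other probe set of Armc8 (averages from -0.42 to -0.14 log2) or of Cgrrf1 (-0.18 to 0.01 log2) passed. Armc8 lost its call with the mean of probe sets (adjusted p = 0.2945). Another probe set did pass for Abhd5 (-0.89 log2) and for Armt1 (-0.48 log2).

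**Figure D3:**
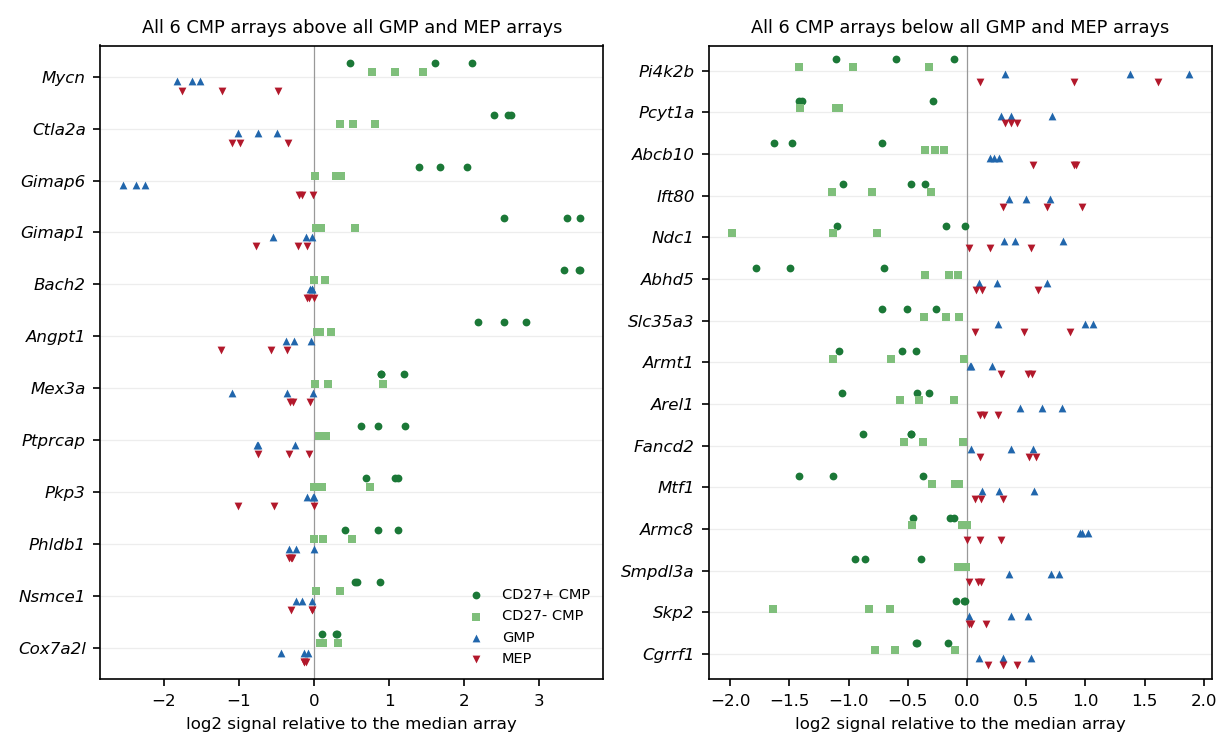
Log2 signal relative to the median array (x axis) in the 12 arrays for the 12 higher (left) and 15 named lower (right) genes whose 6 CMP arrays do not overlap the 6 GMP and MEP arrays; circles are CD27+ CMP, squares CD27- CMP, up-triangles GMP and down-triangles MEP. On the left the squares are often near 0 while the circles reach up to 3.55, and on the right the circles and squares mix.

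Called genes in which the smaller arm was at least 0.5 of the larger and had the same sign numbered 47 higher and 73 lower. They were picked out after their values were seen, so they describe the data and test nothing. Of these, 19 higher and 5 lower genes had an average of at least 1 log2. The lower ones were Pi4k2b, Pcyt1a, Abcb10, Ift80 and Ndc1, given above. Besides Mycn and Meis1, the higher ones held Itih5, an inter-alpha-trypsin inhibitor heavy chain gene, which read 3.53, 3.29 and 3.36 in CD27+ CMP, 1.86, 1.75 and 1.47 in GMP, -1.47, -1.47 and -1.55 in CD27- CMP and -2.26, -2.88 and -2.90 in MEP. On this probe set, the most variable of Itih5, the 4 populations did not overlap, and each CMP fraction exceeded its partner. The average was 1.44 log2 (SE 0.12, adjusted p = 0.000372), with arms of 1.70 log2 (adjusted p = 0.000493) and 1.18 log2 (adjusted p = 0.0698). The other probe sets of Itih5 did not have even arms. Their CD27+ arms were 2.00 and 1.37 log2 and their CD27- arms 0.11 and 0.04 log2. Bcl2, which blocks apoptosis, averaged 1.35 log2 (SE 0.26, adjusted p = 0.0255) with arms of 1.68 and 1.03 log2. Ccng2, encoding cyclin G2, averaged 1.14 log2 (adjusted p = 0.0227) with arms of 1.33 and 0.95 log2. The other probe sets of Bcl2 gave CD27- arms of 0.38, 0.27, 1.08 and 0.45 log2. None of them passed in the average (adjusted p from 0.138 to 0.227 over all probe sets). The other probe set of Ccng2 gave arms of 1.30 and 0.02 log2 and did not pass in the average (adjusted p = 0.378). The cell cycle phosphatase gene Cdc25b averaged 1.02 log2 (adjusted p = 0.0393) with a CD27+ arm of 1.24 log2. With the average first and the CD27+ arm second, the others were Slc35d3 (2.32 and 3.01 log2), Cavin2 (1.96 and 1.70), the protease gene Klk8 (1.82 and 1.68), Ctla2b (1.78 and 2.22), the retinal reductase gene Dhrs3 (1.49 and 1.79), the adaptor gene Lat2 (1.25 and 1.66) and H2-Oa (1.24 and 1.58). Smaller averages were those of Eva1b (1.16 and 1.31), Bex1 (1.15 and 1.07), Tmem176b (1.10 and 1.03), the actin-binding gene Tmsb10 (1.09 and 1.44), Calhm2 (1.01 and 1.02) and Tnfaip8l2 (1.00 and 1.27). The CD27+ arm did not pass for Cdc25b, Cavin2, Klk8, Dhrs3, H2-Oa, Bex1 and Tmem176b. Itih5 and Calhm2 kept their call in all 20 alternatives, and Dhrs3 lost it in 15.

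Mycn and Ctla2a, given above, were among the 8 largest higher averages. Dntt, encoding terminal deoxynucleotidyl transferase of lymphoid precursors, read 7.96, 8.84 and 8.55 in CD27+ CMP and between -0.10 and 0.05 on the other 9 arrays. Its average of 4.26 log2 (SE 0.12, adjusted p = 3.39e-07) combined a CD27+ arm of 8.52 log2 with a CD27- arm near 0. Flt3, a receptor tyrosine kinase of early progenitors, read 7.09, 7.11 and 7.22 in CD27+ CMP and 0.92, 1.62 and 2.65 in GMP, and lay between -1.36 and -0.92 in CD27- CMP and MEP. Its average was 2.76 log2 (SE 0.25, adjusted p = 0.000548), and its arms were 5.41 and 0.10 log2. Wfdc17 (3.46 log2), the potassium channel subunit gene Kcng1 (2.44) and the interferon-inducible gene Ifi27l2a (2.40) were also highest in CD27+ CMP on all 3 of its arrays, with CD27- arms of at most 1.20 log2. Slc35d3, a transporter gene of platelet dense granules, differed in that CD27- CMP was high on 1 array: it read 2.67, -0.34 and 0.79 there, 1.51, 1.82 and 2.21 in CD27+ CMP, -1.26, -1.13 and -1.09 in GMP and 0.34, -1.17 and -0.95 in MEP. Its average of 2.32 log2 (SE 0.48, adjusted p = 0.0326) lost its call in 12 of 20 alternatives.

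The 8 largest lower averages had their highest mean in GMP. Sgms2, sphingomyelin synthase, stood at 7.25, 7.51 and 5.94 on the GMP arrays against 1.97, 0.01 and -0.01 on those of CD27+ CMP, with CD27- CMP and MEP between -0.45 and 0.06. Its average was -3.21 log2 (SE 0.39, adjusted p = 0.00319). Prg2, the eosinophil major basic protein, read 7.12, 7.31 and 4.02 in GMP and between -0.11 and 0.32 elsewhere (-3.19 log2, SE 0.50, adjusted p = 0.0102). Prom1, encoding prominin, stood at 6.59, 7.78 and 6.27 in GMP against 2.93, 0.07 and -0.10 in CD27+ CMP, a CD27+ arm of -5.91 log2 (SE 0.72, adjusted p = 0.0015). The same form held for the steroid enzyme gene Hsd11b1 (-3.06), the sulfotransferase gene Chst13 (-2.90) and the adhesion molecule gene Vcam1 (-2.46), with CD27- arms from -0.03 to 0.03 log2, and that of Prom1 was -0.09 log2. For the guanine deaminase gene Gda (-3.11) the CD27- arm was -0.84 log2 and the call was lost in 8 of 20 alternatives.

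CD27+ CMP replicate 1 stood above its fellows for several of these genes, at 3.26 for Hsd11b1 against -0.02 and -0.03. Over the 243 lower genes with their highest mean in GMP it was the highest of the 3 CD27+ CMP arrays in 119, replicate 2 in 81 and replicate 3 in 43. Without it the averages were -3.54 log2 for Sgms2, -3.61 for Hsd11b1, -3.49 for Prom1, -3.27 for Fcgr3, -3.59 for Gda, -3.07 for Chst13, -2.59 for Vcam1 and -3.20 for Prg2, all still called, and the count of called genes was 576.

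**Figure D4:**
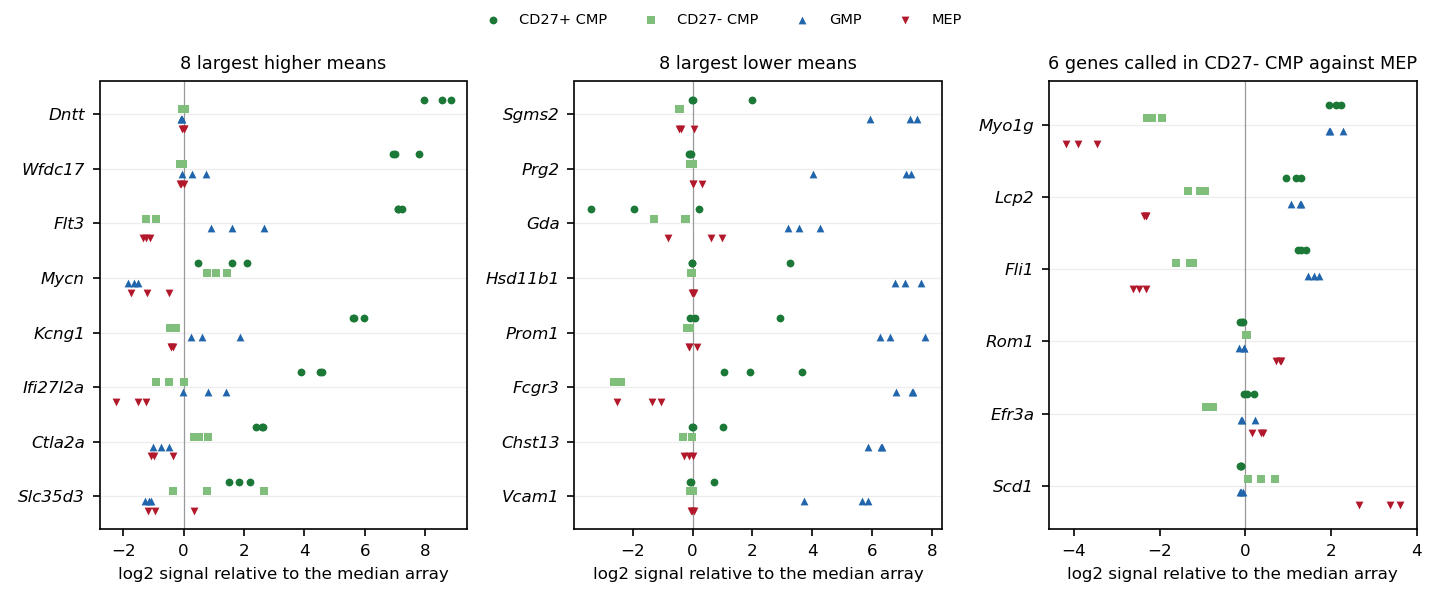
Log2 signal relative to the median array (x axis) in the 12 arrays for the 8 largest higher averages (left), the 8 largest lower averages (middle) and the 6 genes called in CD27- CMP against MEP (right). For Dntt 3 CD27+ CMP points at 7.96 to 8.84 stand apart from the other 9, and for Sgms2, Hsd11b1 and Prom1 1 CD27+ CMP point lies between the rest of its group and GMP.

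In the CD27- arm 6 genes were called. Fli1, Myo1g, a myosin of blood cells, and Lcp2, the adaptor SLP-76, were higher in CD27- CMP than in MEP. With the replicate block these 3 lost the call and 4 genes were called, and with the arms fitted apart 0 were. Over 20 settings Myo1g lost it in 7 and Lcp2 in 3. Myo1g read -2.17, -1.95 and -2.29 against -3.90, -4.19 and -3.46 (1.71 log2, adjusted p = 0.0193), and Lcp2 -1.34, -0.94 and -1.05 against -2.33, -2.36 and -2.31 (1.23 log2, adjusted p = 0.0129). Their CD27+ arms were 0.04 and -0.07 log2. Scd1, a desaturase of fatty acid synthesis, read 0.36, 0.70 and 0.06 in CD27- CMP against 3.38, 3.61 and 2.66 in MEP (-2.84 log2, adjusted p = 0.00536). Efr3a (-1.13 log2, adjusted p = 0.0126) and Rom1 (-0.75 log2, adjusted p = 0.000792) were lower as well. The other probe sets of Efr3a gave CD27- arms of -0.06 and -0.27 log2 (adjusted p = 0.958 and 0.788 over all probe sets). Efr3a lost its call in 3 of 20 settings (highest adjusted p = 0.478) and Scd1 in 1, the mean of probe sets being among them for both. Rom1 kept its call in all 19. The count of 6 was 3 without MEP replicate 2, 26 without MEP replicate 1, 23 without MEP replicate 3, and 23, 11 and 52 without CD27- CMP replicates 1, 2 and 3.

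The arms differed in 377 genes (2.07%), the CD27+ arm being the higher in 192 (1.06%) and the lower in 185 (1.02%). In 206 of these the arms had opposite signs, counted however near 0 the smaller arm was. These include genes moved in 1 arm only, such as Klrd1, with arms of 2.02 and -0.01 log2 and a called average of 1.01 log2. The count of 377 was 228 without MEP replicate 2 and 251 without CD27- CMP replicate 2. F10, the gene of coagulation factor X, read 1.06, 0.10 and -0.21 in CD27+ CMP against 3.96, 3.90 and 3.76 in GMP, but had a mean of -0.01 (SD 1.05) in CD27- CMP against -0.86, -1.04 and -1.16 in MEP. Its CD27+ arm was -3.55 log2 (adjusted p = 0.00264) and its CD27- arm 1.01 log2 (adjusted p = 0.872). On the other probe sets of F10 the arms were not opposite, with CD27- arms of -0.03 and -0.01 log2. Their averages of -1.56 and -1.08 log2 passed (adjusted p = 0.00184 and 0.0227 over all probe sets). Nkg7, a gene of cytotoxic and myeloid granules, had arms of -1.82 and 1.45 log2 and an average of -0.19 log2. Wls, which carries Wnt proteins to the surface, had arms of -0.94 and 1.23 log2. In the other direction, the Wnt inhibitor gene Apcdd1 had arms of 1.60 and -0.94 log2 and the nucleoside kinase gene Dck of 0.84 and -0.64 log2. In none of these 5 was the CD27- arm called. On the other probe sets of Apcdd1 the CD27- arms lay only between -0.27 and -0.006 log2.

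The gene lists describe the same comparison by function, against a background of 1.73% of genes higher and 1.88% lower and a median difference of -0.02 log2 over all genes. In the CD27+ arm the background was 2.58% higher and 2.63% lower. This background holds 7471 of 18193 genes that spanned under 0.5 log2 over the 12 arrays, and the lists differ in such flat members. They were 2 of 29 stem and early progenitor regulators and 1 of 29 surface genes, but 6 of 15 late neutrophil genes, 6 of 10 B cell, 11 of 16 T and NK cell and 10 of 15 stromal markers. The shares of the lists and the background are therefore not on an equal footing. The lists were also chosen with earlier results of these data known, and the regulators hold Mycn, Meis1 and Fli1, markers given beforehand for this comparison. Their shares are thus a description and no independent support. Of 29 regulators of stem cells and early progenitors 10 were higher and 0 lower, with a median of 0.41 log2. In the CD27+ arm 11 were higher and 1 lower. Those called in the average were Mycn, Meis1, Mecom (1.23 log2), Mn1 (0.95), Hlf (0.90), Gata2 (0.75), Hhex (0.64), Etv6 (0.47), Fli1 and Lmo2 (0.25). For Mecom, an EVI1-type zinc finger factor, CD27+ CMP read 2.83, 2.76 and 3.24, GMP 0.71, 0.01 and 0.65, and the CD27- CMP and MEP arrays between -0.08 and -0.01. Hlf and Lmo2 also moved in the CD27+ arm alone, with CD27- arms of -0.18 and -0.07 log2. Gata2, a zinc finger factor of progenitors and mast cells, read -0.16, -0.02 and -0.39 in CD27+ CMP against -1.33, -1.32 and -1.50 in GMP; in CD27- CMP it read 0.96, 0.63 and 0.16 against 0.02, 0.32 and 0.48 in MEP. Its average was 0.75 log2 (SE 0.14, adjusted p = 0.0206), and CD27- CMP and MEP overlapped. Etv6 had arms of 0.49 and 0.45 log2. The other probe set of Etv6 gave arms of 0.27 and 0.14 log2 and did not pass in the average (adjusted p = 0.702 over all probe sets). Runx1 (0.12 log2), Erg (0.47), Hoxa9 (0.26), Myb (-0.33) and Gfi1 (-1.10) did not pass.

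Of 29 surface and signalling genes of early progenitors 7 were higher and 1 lower, with a median of 0.65 log2. The CD27+ arm called 10 higher and 1 lower. Beside Flt3 and Angpt1, the adhesion receptor gene Adgrg1 (1.42 log2) and its relative Adgrl4 (0.96), the sialomucin gene Emcn (0.80), Ndn (0.82) and the cytokine receptor subunit gene Il6st (0.62) were higher, and Prom1 was lower. Adgrl4 read 4.25, 4.23 and 4.32 in CD27+ CMP against 3.04, 2.91 and 3.14 in GMP; in CD27- CMP it read -2.91, -3.88 and -2.93 against -3.75, -3.85 and -4.17 in MEP. Its arms were 1.24 and 0.68 log2, and CD27- CMP replicate 2 fell among the MEP arrays. The other probe set of Adgrl4 gave arms of 1.15 and 0.03 log2. Cd34, Cd93 (0.91 log2) and Esam (0.65) had both arms positive and did not pass.

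Of 27 megakaryocyte and platelet genes 5 were higher and 0 lower, with a median of 0.37 log2. The CD27+ arm called 4 higher and 1 lower. F2r, the thrombin receptor gene, read -0.97, -0.67 and -0.95 in CD27+ CMP against -5.33, -4.17 and -4.39 in GMP; in CD27- CMP it read 1.55, 1.92 and 1.75 against 1.45, 0.99 and 0.67 in MEP. Its average was 2.23 log2 (SE 0.21, adjusted p = 0.000716), and each CMP fraction lay above its partner. Cavin2, a caveolar gene also known from platelets, read -0.17, 0.27 and 0.29 against -1.01, -1.46 and -2.25, and 3.09, 1.41 and 1.14 against 0.09, -0.09 and -0.98, and averaged 1.96 log2 (SE 0.38, adjusted p = 0.0239). CD27- CMP replicate 1 was the highest of its group. On the other probe sets of Cavin2 the average did not pass (1.38 and 0.67 log2, adjusted p = 0.0917 and 0.642 over all probe sets). Slc35d3, the P-selectin gene Selp (1.62 log2) and Plek, the platelet substrate pleckstrin (1.47), were the others. Pf4 (1.25 log2), Gp1bb (1.09), Itga2b (1.02) and Vwf (0.58) did not pass. The mean of the list read -0.10, 0.03 and 1.13 as lowest, median and highest array in CD27- CMP and -0.41, -0.07 and 0.49 in MEP, so those groups overlapped.

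Of 21 erythroid membrane and globin genes 0 were higher and 1 lower, the spectrin gene Sptb (-0.62 log2, adjusted p = 0.0257), with a median of -0.24 log2; the CD27+ arm called 0. Of 12 haem synthesis genes 2 were lower, Alas1 (-1.01 log2) and Abcb10, with a median of -0.19 log2, and the CD27+ arm called 2 lower. Alas1, the first enzyme of the pathway outside red cells, fell in the CD27+ arm, at 1.43, 1.07 and 1.00 against 3.20, 2.96 and 3.30 in GMP. Of 19 erythroid and megakaryocytic factors Cbfa2t3 (0.73 log2) and Lmo2 were higher and 0 lower (median 0.27 log2), and Gata1 (0.55) and Klf1 (0.22) did not pass; the CD27+ arm called 4 higher. The mean of the erythroid membrane and globin list ran from 2.23 to 2.34 in CD27- CMP and from 2.53 to 2.74 in MEP, and was at most -2.24 in the other populations.

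Of 5 myeloid lists 4 held lower members and 2 held a higher one. Of 21 granulocyte-monocyte receptors 4 were lower and 0 higher (median 0.07 log2): Fcgr3, the lectin receptor gene Clec4a2 (-2.43 log2), Cd14 (-1.71) and Tlr4 (-1.66), the receptors of bacterial lipopolysaccharide. In the CD27+ arm 4 were lower and 1 higher. Tlr4 read 3.53, 3.27 and 3.30 in GMP and between -0.10 and 0.14 on the other 9 arrays. Of 15 late neutrophil genes 4 were lower, Lcn2 (-1.67 log2), Pglyrp1 (-1.60), Cybb (-1.32) and Ltb4r1 (-1.27), with a median of -0.07 log2. Of 16 members of the primary granule list (median -0.12 log2) only Gstm1 was lower (-1.42 log2), and it encodes a glutathione S-transferase, not a granule protein. In the CD27+ arm 5 late neutrophil genes and 6 members of the primary granule list, Gstm1 among them, were lower and 0 higher. Of 17 mast cell, basophil and eosinophil genes Hdc (-1.48 log2), Prg3 (-1.62) and Prg2 were lower and Gata2 higher (median -0.19 log2), and the CD27+ arm called 5 lower and 1 higher. Of 17 granulocyte-monocyte factors Nfil3 (0.26 log2) was higher and 0 lower (median 0.03), while Irf8 (1.33), Spi1 (0.77) and Cebpa (0.30) did not pass; the CD27+ arm called 1 higher and 2 lower. All of the CD27- arms of the lower genes in these 4 lists except Fcgr3 lay between -0.20 and 0.28 log2.

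Higher members of the 23 early lymphoid genes numbered 4, with 0 lower: Dntt, Flt3, Gimap6 and the lymphotoxin gene Ltb (1.35 log2), with a median of 0.24 log2. The CD27+ arm called 7 higher. Of 9 genes of MHC class II presentation 4 were higher and 0 lower (median 0.25 log2): H2-Ob (1.91 log2, adjusted p = 0.0021), the protease gene Ctss (1.33), H2-Oa (1.24) and H2-DMa (1.07). The CD27+ arm called 3 higher. H2-DMa encodes a chain of DM, which loads peptides, and H2-Ob and H2-Oa encode the DO heterodimer. H2-Ob read 3.27, 3.22 and 3.73 in CD27+ CMP against 0.37, 0.03 and 0.67 in GMP; in CD27- CMP it read -0.38, -0.03 and -0.55 against -1.28, -1.56 and -0.39 in MEP. The class II molecules themselves, H2-Aa (0.25), H2-Ab1 (0.13) and H2-Eb1 (0.05), and Cd74 (0.12) and Ciita (0.01) did not pass. Of 10 mature B cell markers 0 were called, and of 16 T and NK cell markers only Klrd1 (1.01 log2), which read 2.09, 1.87 and 2.04 in CD27+ CMP. The CD27+ arm called 0 B cell markers and 2 higher and 1 lower T and NK cell markers. The mean of the B cell list ran from 0.02 to 0.21 in CD27+ CMP and from -0.13 to 0.13 elsewhere, and Cd3e (-0.03), Ms4a1 (-0.01) and Cd22 (-0.02) did not pass. Of 15 stromal and endothelial markers Pdgfrb (1.33) and Pecam1 (0.29) were higher and Vcam1 lower, and Cdh5 (-0.02), Kdr (-0.01) and Cxcl12 (-0.04) did not pass; the CD27+ arm also called 2 higher and 1 lower. The part of such cells in the differences was not tested.

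Signalling genes changed in small numbers. Of 23 genes of the TGF-beta and BMP pathways, Tgfbr2 (0.74 log2, adjusted p = 0.00521), Smad1 (0.73) and the receptor gene Acvr1 (0.35) were higher and the target Id1 lower (-1.44), with a median of 0.21 log2; the CD27+ arm called 2 higher and 1 lower. Smad1 was 1 of 26 higher genes whose CD27- arm (0.91 log2) was the larger, against a CD27+ arm of 0.54 log2. Id1 read 3.06, 3.64 and 3.79 in GMP against 0.70, 0.86 and 0.59 in CD27+ CMP. Of 25 Notch and Wnt genes, Notch2 (0.44) was higher and Fzd7 (-0.52) lower, and of 23 integrin and adhesion genes, Itgb7 (1.34) higher and Vcam1 lower, with medians of 0.0017 and -0.00171 log2. In the CD27+ arm 1 Notch and Wnt gene was higher and 1 lower, and 3 adhesion genes were higher and 2 lower. Of 23 receptor genes, Flt3, Il1r1 (1.70 log2), Cd27 and Il6st were higher and Ifngr1 lower (-0.90), with a median of 0.11 log2; the CD27+ arm called 5 higher and 1 lower. Ifngr1, the interferon gamma receptor, read -0.95, -1.29 and -1.73 in CD27+ CMP and between -0.16 and 0.52 on the other 9 arrays.

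Of 22 mitosis genes 0 were called (median -0.03 log2), and of 33 DNA replication genes 3 were lower, Cdc45 (-0.62 log2), Rrm2 (-0.68) and Orc1 (-0.55), with a median of -0.02 log2. That is 9.09% against 1.88% of all genes, but Orc1 lost its call in 16 of 20 alternatives and its other probe set averaged 0.39 log2. The CD27+ arm called 0 mitosis genes and 2 lower replication genes. Rrm2, a subunit of ribonucleotide reductase, had arms of -0.81 and -0.55 log2. Of 15 G1 genes only Ccnd1 was higher (0.79 log2; median 0.09), against 3 higher in the CD27+ arm. Of 29 genes of ribosome biogenesis and Myc, Mycn and Mycl (0.41 log2) were higher and 0 lower, with a median of -0.13 log2, and Myc (0.26), Ncl (-0.57) and Npm1 (-0.27) did not pass; the CD27+ arm called 2 higher. Of 17 lysosomal genes Ctss and Lgmn (1.49) were higher and Neu1 (-1.05), Gla (-0.76) and Ctsl (-0.51) lower (median -0.08), with the same counts in the CD27+ arm. Of 18 cholesterol synthesis genes Sc5d was lower (-0.72; median -0.21), of 23 immediate early genes Gadd45b was lower (-0.92; median 0.02), and of 19 interferon response and 17 glycolysis genes 0 were called (medians 0.27 and 0.06). In the CD27+ arm the cholesterol list had 1 higher and 1 lower, the immediate early list 1 and 2, the interferon list 2 and 0 and the glycolysis list 1 and 3. Over all lists 72 distinct members were called. Of those, Orc1, Ndn (15 of 20), Nfil3 (14), Ctsl (14), Neu1 (13), H2-Oa (13), Fli1 (13), Slc35d3 (12), Lmo2 (12 of 19), Cd27 (11), Selp (11), Cybb (11), Ccnd1 (11) and Pecam1 (11) lost their call in more than 10 alternatives.

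**Figure D5:**
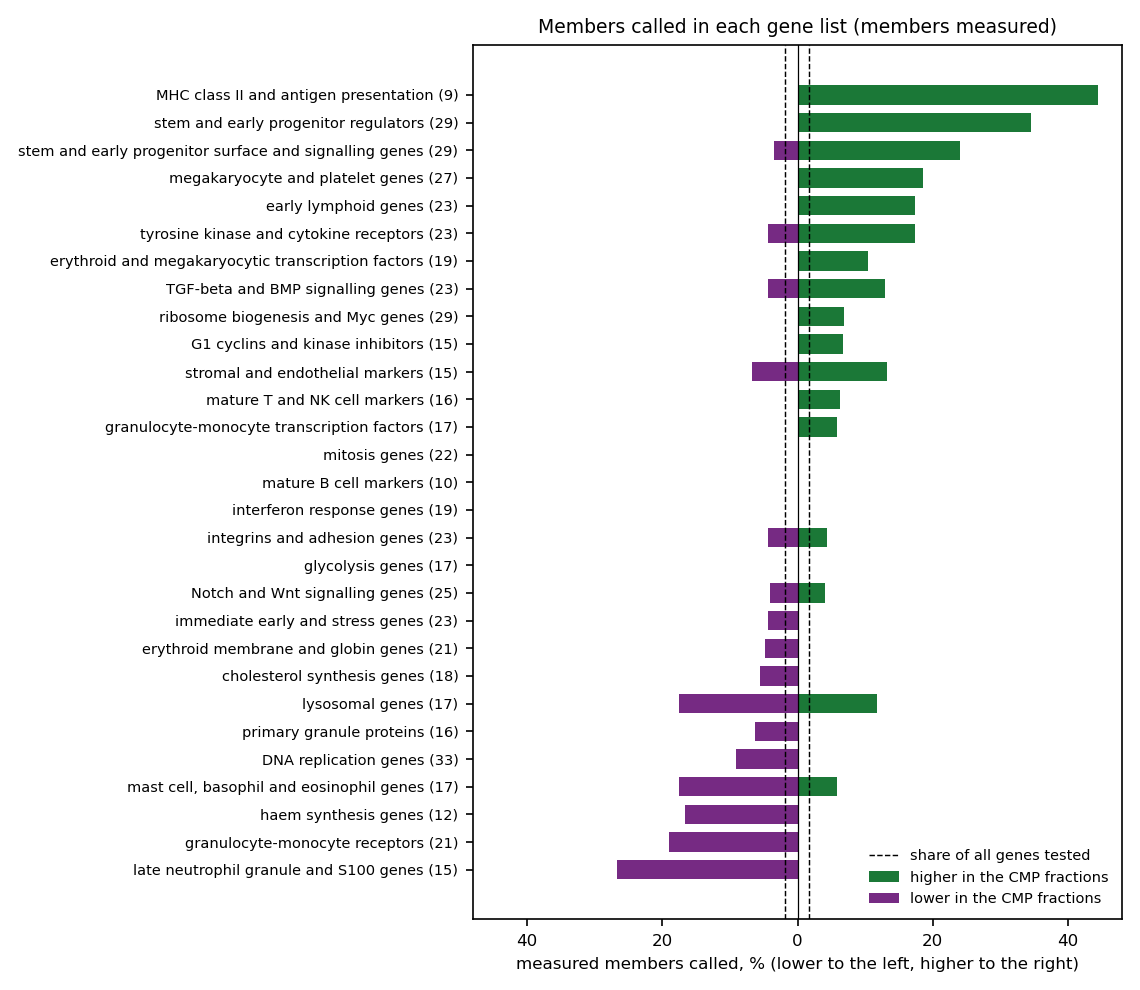
Share of the measured members of each of 29 gene lists (number measured in brackets) that were called higher (right, green) or lower (left, purple) in the CMP fractions, in percent; dashed lines mark the shares over all genes, 1.73% higher and 1.88% lower. The lists of MHC class II, stem and early progenitor regulators and surface genes have the longest bars to the right, and late neutrophil and granulocyte-monocyte receptor genes the longest to the left.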

How the data were processed

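The authors deposited 1 table of log2 values for 45037 probe sets on 12 arrays. The submitters' processing notes name GCRMA; its version is not stated in the sources used here, nor is the log base, which was taken as log2. Each deposited probe set has a median of 0 over the 12 arrays (largest departure 5e-07), so levels were lost before deposit, and a fold with a group near background is uncertain in size. The annotation gave 34945 probe sets exactly 1 gene symbol, 932 several and 9160 none. RefSeq (GRCm38.p6) held the gene number of 34741 of these 34945, and 0 symbols changed. Each of 18193 genes was read from its probe set with the largest SD.

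The tests came from limma 3.58.1 (R 4.3.3), with 1 mean per population, contrasts for the average of the arms, each arm and their difference, empirical Bayes moderation, two-sided tests and Benjamini-Hochberg adjustment over all genes. The fit was tested on simulated data. Precision is limited by the number of arrays.

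The comparison, its genes and the 29 gene lists were chosen with earlier results of these data known. Named genes were the 15 largest called genes per direction without overlap of the 6 and 6 arrays, up to 15 called in both arms (0 were), the 8 largest called per direction, 6 per direction with opposite arms, sort marker genes and list members; gene models without a name were left out. Genes with even arms and those called in the CD27- arm were added after their values were seen. The alternatives were quantile normalization, centring of arrays, the mean of probe sets, a filter on a range of at least 1 log2, robust moderation, array weights, a replicate block, arms fitted apart, an adjusted p under 0.01 and each array left out.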

Additional observations from a re-analysis of the deposited data

Results flagged for a closer look

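The difference between CD27+ CMP and GMP and the difference between CD27- CMP and MEP were themselves compared, as the CD27+ arm minus the CD27- arm in the limma fit, and 377 genes (2.07%) passed. All values in this section are such differences of arms in log2, each with an adjusted p under 0.05 and n = 3 arrays per population. A positive value means that the CMP fraction exceeded its partner by more, or fell short of it by less, on the CD27+ side.

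Among the genes whose 6 CMP arrays did not overlap the other 6, the arms differed for Gimap6 (3.74), Bach2 (3.40), Gimap1 (2.78), Ctla2a (1.92) and Angpt1 (1.90) and for 3 of the lower ones, among them Smpdl3a (-1.22). Among the largest higher averages the values were 8.52 for Dntt, 6.92 for Wfdc17, 5.31 for Flt3 and 4.79 for Kcng1, and the interleukin receptor gene Il1r1 had 3.70. Further positive values were those of Ltb (1.78) in the early lymphoid list, H2-Ob (2.29) in the antigen presentation list, Lgmn (3.04) in the lysosomal list and Klrd1 (2.04) in the T and NK cell list.

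In the list of stem and early progenitor regulators the values were positive for Mecom (2.50), Hlf (2.16), Mn1 (1.57) and Lmo2 (0.63), and in that of surface and signalling genes for Ndn (2.05), Emcn (1.67) and Il6st (1.55). Members of other lists were Mycl (0.82), Nfil3 (0.57), Pecam1 (0.59) and Acvr1 (0.81). Ccnd1, cyclin D1, had 1.82, and the thrombin receptor gene F2r 3.06.

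Negative values were those of Prg2 (-6.08), Sgms2 (-6.06), Hsd11b1 (-6.06), Chst13 (-5.86), Prom1 (-5.82), Vcam1 (-4.88) and Fcgr3 (-4.08) among the largest differences. In the lists of myeloid genes they were Clec4a2 (-4.82), Hdc (-3.53), Cd14 (-3.39), Lcn2 (-3.28), Tlr4 (-3.26), Gstm1 (-3.14), Prg3 (-3.14), Ltb4r1 (-2.87) and Pglyrp1 (-2.79). Others were Id1 (-2.68), Neu1 (-2.33), Alas1 (-1.96), Gadd45b (-1.84) and Ifngr1 (-1.61), the last of which was low in CD27+ CMP.

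Where the arms had opposite signs, the CD27+ arm was the positive one for Fads3 (4.05), Apcdd1 (2.54), Cnn3 (2.27), Dck (1.48), Psap (1.21) and Jak1 (1.11). It was the negative one for F10 (-4.57), Nkg7 (-3.27), Tuba8 (-2.98), Wls (-2.17), Ppic (-2.01) and Itpripl2 (-1.86). The positive CD27+ arm of Fads3 was that of its most variable probe set only. On its other probe sets that arm was negative and did not pass, and the call of Fads3 was lost in 10 of 20 alternatives. The positive CD27- arm of F10 was likewise that of its most variable probe set only. In the genes called in CD27- CMP against MEP, the difference was positive for Scd1 (2.83), Efr3a (1.18) and Rom1 (0.74) and negative for Myo1g (-1.68), Fli1 (-1.37) and Lcp2 (-1.30). The spectrin gene Sptb had 1.36, as MEP exceeded CD27- CMP.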

How the results depend on the processing

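With array weights the CMP comparison called 1450 genes (681 higher, 769 lower) and 2541 probe sets against 907, the CD27+ arm 2758, the CD27- arm 31, the difference of the arms 711 and the lists 125 members. With an adjusted p under 0.01 the same counts were 234 (105 and 129), 309, 503, 2, 150 and 37, and the lower genes without overlap 13. Lower genes without overlap numbered 19 after quantile normalization and 20 after centring. Called in both arms were 1 gene after centring, 2 with the mean of probe sets (Pcyt1a, Spg20), 3 with the range filter (Ctla2a, Mycn, Pcyt1a) and 2 with array weights (Cep85, Itih5), and the CD27- arm called 14 with the range filter. With the arms fitted apart the CD27+ arm called 477 genes and the CD27- arm 0; that fit gives no value for their average.

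Leaving out 1 array gave 346 to 777 genes (160 to 369 higher, 186 to 408 lower), 484 to 1117 probe sets, 647 to 1004 genes in the CD27+ arm, 3 to 52 in the CD27- arm, 228 to 415 with differing arms, 0 to 3 in both arms, 10 to 29 higher and 19 to 55 lower without overlap, and 48 to 80 list members. Without MEP replicate 2, 338 of the 346 were among the 656.

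The groups share replicate numbers. Over 18 same-numbered pairs the residual correlations ran from -0.302 to 0.597, 9 above 0.1, and 9 of 12 arrays correlated best with their own number. This is a hint of a link between equal numbers, from the data only. The main fit did not take the numbers as pairs, so its p-values leave out any such link. With the replicate block 714 genes were called, 559 of them among the 656.

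Of 142 results for single genes, 60 kept their side of the threshold under every alternative run, 81 lost a call under at least 1, Cd34 gained one and 0 reversed; 24 lost it in over 0.5 of them. Array number and the spread within groups, not a read depth, limit what can be called.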
